A study of Mus musculus with 12 samples.

Results

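The 6 genes described here encode structural non-coding RNAs: Rn7sk (7SK RNA), Rmrp (RNA of RNase MRP), Rpph1 (RNA of RNase P), Terc (telomerase RNA), and Rny1 and Rny3 (Y RNAs). They were chosen by symbol as the named members of these RNA classes, with earlier results on the same libraries known, and correspond to 7 of the 55401 Ensembl identifiers counted, because Rmrp has 2. Of the 7 identifiers, 3 (Rn7sk, Rny1 and Rny3) held reads and passed the filter on low counts, and 4 (both of Rmrp, Rpph1 and Terc) were listed at 0 in all 12 libraries.

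The libraries came from Neuro-2a, a mouse neuroblastoma line, and from one experiment with 3 groups of 4 biological replicates numbered 1 to 4. All groups received 1 µg of a plasmid (pCAGGs-linkB-IRES-GFP) that expresses GFP together with 3 µg of plasmid encoding artificial microRNAs in a miR30 backbone. The control group, miScramble, received a scramble microRNA, miRbmx a pool of 3 plasmids against Rbmx, and miRbmxl1 a pool of 2 against Rbmxl1. Rbmx encodes a nuclear RNA-binding protein, and Rbmxl1 is a retrocopy of it. GFP-positive cells were sorted 48 hours after transfection, so each library is a pool of transiently transfected cells, and the GFP marker sits on a plasmid other than the microRNA plasmids. Stranded libraries were prepared from total RNA after removal of ribosomal RNA. The labels do not say whether a replicate number stands for a culture, a passage or a day, so p-values measure the spread between these samples.

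Reads in genes numbered 43.1 to 52.2 M per library, and at that depth 3 counts, the limit that a count of 0 allows, correspond to counts-per-million (CPM) values of 0.0557 to 0.0698. This limit covers counting error only. In the libraries against Rbmx, the level of Rbmx was 27.6 ± 4.96 CPM (SD, n = 4) against 67.7 ± 7.15 in miScramble, and in those against Rbmxl1 the level of Rbmxl1 was 14.2 ± 1.99 against 34.1 ± 2.21. Rbmx was also higher in miRbmxl1, at 86.3 ± 3.51 CPM (log2 change 0.36 ± 0.07, edgeR's quasi-likelihood test with the replicate block, adjusted p = 0.0165), a call that was lost without the block. Markers of the sympathetic neuroblastoma lineage summed to 1900 to 2650 CPM. Mycn, one of them, was called higher in both knockdowns, at 11.4 ± 0.896 CPM in miScramble, 17.1 ± 3.69 in miRbmx and 18.4 ± 4.44 in miRbmxl1 (edgeR, adjusted p = 0.0126 and 0.00844), calls that were lost without the replicate block. In the same libraries, 3 leukocyte markers summed to 0.453 to 1.48 CPM, 3 endothelial markers to 4.62 to 7.82 and 3 fibroblast markers to 0.741 to 2.76. In bulk RNA of this kind, fewer cells with an RNA and less of it per cell cannot be told apart.

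These RNAs act as scaffolds or catalysts inside RNA-protein particles. 7SK RNA holds the elongation kinase P-TEFb in an inactive particle together with HEXIM, LARP7 and MEPCE proteins, and so limits the release of paused RNA polymerase II. RNase P and RNase MRP share most of their protein subunits and process precursors of tRNA and of ribosomal RNA. Telomerase RNA is the template and scaffold of telomerase, and Y RNAs are bound by Ro60 and La and take part in RNA quality control and in the initiation of DNA replication. RNA polymerase III transcribes all of them except telomerase RNA, which in mammals is made by RNA polymerase II.

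The sequences are shown because they bear on which of these RNAs can be counted from reads that map to a single gene. They are from the GENCODE M21 transcripts on GRCm38, written 5′ to 3′ in DNA letters. Rn7sk, ENSMUSG00000065037, lies at chr9:78175303-78175633 on the minus strand (331 bases, 1 exon). Its first 241 bases are identical to Gm24447, an annotated copy, of which the last 100 are shown in lower case (chr9:78175303-78175492 in all), and the capitals mark the bases after that stretch (242 to 331).
Rn7sk, bases 142 to 331: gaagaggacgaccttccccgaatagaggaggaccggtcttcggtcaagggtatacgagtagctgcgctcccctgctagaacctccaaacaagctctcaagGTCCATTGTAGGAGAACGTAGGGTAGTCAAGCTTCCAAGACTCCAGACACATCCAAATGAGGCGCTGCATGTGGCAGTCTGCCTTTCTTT
Of the 282 words of 50 bases in Rn7sk, 192 (68.1%) occur in Gm24447 as well, and none of the words that reach the capitals occur in another annotated transcript.

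Rny1, ENSMUSG00000065701, lies at chr6:47788069-47788180 on the minus strand (112 bases), and Rny3, ENSMUSG00000064945, at chr6:47781624-47781725 on the plus strand (102 bases). Neither overlaps an exon of another gene. Capitals mark words of 7 or more bases that both contain, 42 bases in each RNA, from base 4 to 103 of Rny1 and from base 4 to 93 of Rny3.
Rny1: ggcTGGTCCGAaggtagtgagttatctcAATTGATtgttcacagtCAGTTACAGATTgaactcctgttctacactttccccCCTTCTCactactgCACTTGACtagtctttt
Rny3: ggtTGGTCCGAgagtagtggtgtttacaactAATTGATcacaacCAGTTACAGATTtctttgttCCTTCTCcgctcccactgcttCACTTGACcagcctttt
Between these blocks the sequences of both RNAs differ. Of the words of 50 bases, 12 of 63 (19.0%) in Rny1 occur in another annotated gene, Gm26168, and 0 of 53 in Rny3 do.

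The RNAs listed at 0 differ in how they sit in the annotation. Rmrp has a ribozyme identifier, ENSMUSG00000088088 (chr4:43492788-43493058, minus strand, 271 bases), which lies wholly within a lincRNA identifier of the same symbol, ENSMUSG00000115420 (chr4:43492783-43493063, 281 bases). The longer identifier has 5 bases to itself at each end, and the capitals below mark those at the 5′ end.
Rmrp, first 30 bases: AGGCAgctcgctctgaaggcctgtttccta
Rpph1, ENSMUSG00000092837 (chr14:50807449-50807767, minus strand, 319 bases), shares 233 bases with an exon of Ccnb1ip1 on the same strand. The parts outside that exon are the first 35 bases and the last 51 (bases 269 to 319), printed in capitals.
Rpph1, 5′ end: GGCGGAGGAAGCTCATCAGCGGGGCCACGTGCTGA
Rpph1, 3′ end: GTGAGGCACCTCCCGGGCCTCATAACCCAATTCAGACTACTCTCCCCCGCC
Terc, ENSMUSG00000064796 (chr3:96414437-96414859, minus strand, 423 bases), overlaps no other exon on either strand, and 0 of its 374 words of 50 bases occur in another annotated transcript. Its first 120 bases contain the longest run that reads as consecutive CCCTAA repeats, in capitals (bases 28 to 36), which is the telomere template.
Terc, bases 1 to 120: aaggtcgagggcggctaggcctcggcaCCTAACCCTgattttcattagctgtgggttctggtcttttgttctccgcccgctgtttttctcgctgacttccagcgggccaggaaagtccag

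Both Rmrp identifiers, Rpph1 and Terc were listed at 0 reads in each of the 4 miScramble, 4 miRbmx and 4 miRbmxl1 libraries. No library stood above the limit of 0.0698 CPM for these identifiers, and no change between groups could be measured. Across the annotation, 762 identifiers had every exon base covered by another gene on the same strand, and 761 of them (99.9%) were at 0 in all libraries. Among identifiers with 1 or more uncovered bases, 22698 of 54379 (41.7%) were at 0, and among misc_RNA and ribozyme identifiers with no covered base, 323 of 493 (65.5%). The ribozyme identifier of Rmrp belongs to the first set, while Rpph1, the longer Rmrp identifier and Terc do not. The covered bases were 271 of 281 in the longer Rmrp identifier, 233 of 319 in Rpph1 and 0 of 423 in Terc. The deposited files set aside 1.19 to 1.51 M reads per library as ambiguous between genes and 20.7 to 28.1 M alignments as non-unique. They do not say which genes these came from, and their part in the zeros was not tested.

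The genes next to the structural RNAs did hold reads. Ccdc107, which lies opposite 124 bases of Rmrp, was at 22.4 CPM in miScramble, 23.5 in miRbmx and 24.1 in miRbmxl1. Parp2, a poly(ADP-ribose) polymerase whose start lies 74 bases from that of Rpph1 on the other strand, was at 18, 17.0 and 19.2 CPM. Neither was called in a knockdown. C920006O11Rik, a lincRNA that starts 281 bases from Rn7sk on the other strand, was at 0.256 CPM in miScramble, 0.339 in miRbmx and 0.497 in miRbmxl1, and Gm21960, a pseudogene that starts 1498 bases from Terc, was at 0.145, 0.189 and 0.209 CPM, with no call in a knockdown for either. Ccnb1ip1, the gene that shares an exon with Rpph1, held 37 reads over all 12 libraries and did not pass the filter. Of 4 annotated copies of Rpph1 (at least 80% identity over at least 50% of its length), Rprl3, 86.0% identical, held 68545 reads over the libraries, and Rprl2, 85.6% identical, held 1214. These 2 copies were singled out after their values were seen. Rprl3 was at 107 ± 15.6 CPM in miScramble, 132 ± 33.1 in miRbmx and 128 ± 44.3 in miRbmxl1 (SD, n = 4), with log2 fold changes of 0.28 ± 0.13 (SE) and 0.22 ± 0.13 against miScramble that did not pass the test (adjusted p = 0.195 and 0.369, edgeR's quasi-likelihood test). Both annotated copies of Terc were at 0. Tert, the protein subunit of telomerase, was at 19.7 ± 1.24 CPM in miScramble, 18.5 in miRbmx and 19.6 in miRbmxl1.

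Rn7sk was among the most heavily counted genes. In miScramble it was at 7610, 8018, 5198 and 6150 CPM in replicates 1 to 4. In miRbmx it was at 7901, 7699, 5108 and 6058 CPM, and in miRbmxl1 at 10593, 6127, 5420 and 5925 CPM. The 3 groups overlapped throughout, replicate 1 of miRbmxl1 stood above all other libraries, and replicates 3 and 4 were the lower ones within each group. Rn7sk took 0.52% to 1.01% of reads in genes and ranked from 1st to 5th by count. Per base of annotated length it ranked 1st in each of the 12 libraries, at 20375 ± 3945 CPM per kilobase in miScramble (SD, n = 4).

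The Y RNAs were counted from far fewer reads. Rny1 was at 18.5, 9.63, 18.2 and 19.0 CPM in miScramble, at 21, 24.2, 15.9 and 24.8 in miRbmx, and at 13.2, 10.1, 28.3 and 18 in miRbmxl1, from 414 to 1263 reads per library. Rny3 was at 8.19, 6.93, 8.47 and 10.8 CPM in miScramble, at 12, 10.8, 9.39 and 13.3 in miRbmx, and at 10.8, 4.43, 22 and 9.09 in miRbmxl1, from 211 to 982 reads. The highest library of both was replicate 3 of miRbmxl1, and that group spanned the range of the other groups for Rny3. That library was also highest for Rprl2 and for the vault RNA Vaultrc5, picked after their values were seen. Rn7sk and Rprl3 were highest in replicate 1 of miRbmxl1 instead. Per kilobase, the level in miScramble was 146 ± 40.0 CPM for Rny1 and 84.3 ± 15.9 for Rny3 (SD, n = 4). How well RNAs of 112 and 102 bases were recovered in the libraries was not measured. These values and that of Rn7sk therefore compare counted reads, not amounts of RNA.

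**Figure D1:**
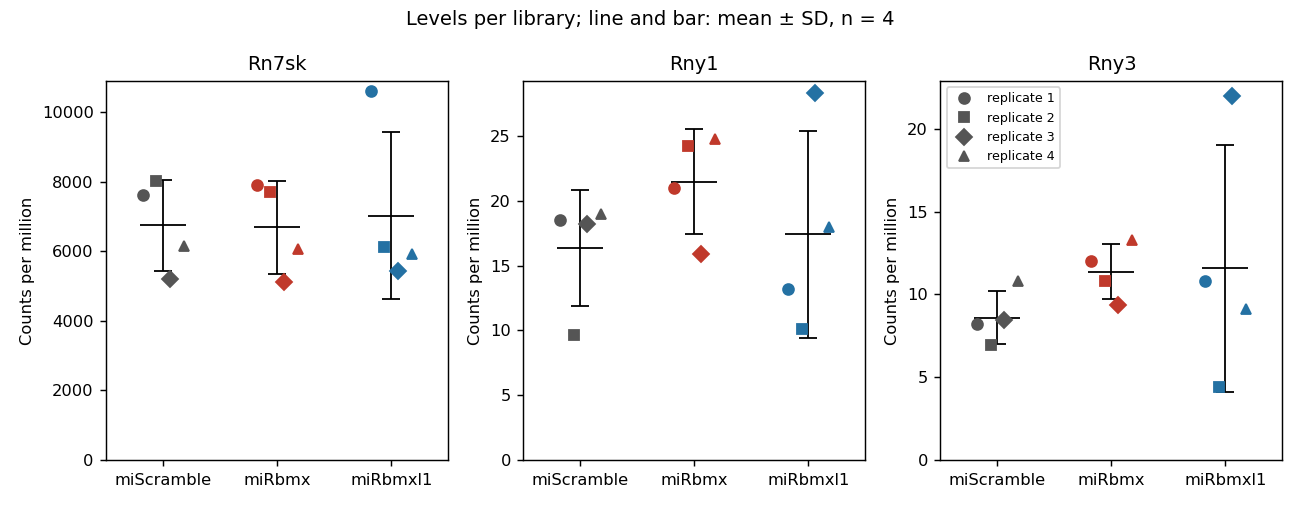
CPM of Rn7sk, Rny1 and Rny3 in each of the 12 libraries, with the axis from 0. Symbols mark the replicate number, and the line and bar are the mean and SD of 4 libraries. Replicate 1 of miRbmxl1 is highest for Rn7sk (10593 CPM), and replicate 3 of miRbmxl1 is highest for Rny1 (28.3) and Rny3 (22).

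The comparison with miScramble asks whether lowering Rbmx or Rbmxl1 moves the levels of these RNAs. Their values against miScramble are given as a description, with no p-value, because the genes were listed with these groups' values known. A log2 fold change here comes from the edgeR model over all 12 libraries with the replicate number as a block, and is followed by its SE and 95% interval.

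The mean level of Rn7sk ran from 6692 ± 1340 CPM in miRbmx through 6744 ± 1306 in miScramble to 7016 ± 2403 in miRbmxl1 (SD, n = 4), and neighbours in that order differed by far less than their spread. Its log2 fold change was -0.02 ± 0.10 (-0.23 to 0.20) in miRbmx and 0.03 ± 0.10 (-0.18 to 0.25) in miRbmxl1, so that the intervals ran from 0.852-fold to 1.15-fold and from 0.880-fold to 1.19-fold. Within same-numbered pairs, the ratio to miScramble was 1.04, 0.960, 0.983 and 0.985 in miRbmx, the narrowest set of ratios among these RNAs. It was 1.39, 0.764, 1.04 and 0.963 in miRbmxl1. Both signs turned when 1 library or 1 replicate number (3 libraries) was left out, with log2 values of -0.10 to 0.06 for miRbmx and -0.13 to 0.17 for miRbmxl1.

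Rny1 had means of 16.3 ± 4.47 CPM in miScramble, 17.4 ± 7.95 in miRbmxl1 and 21.5 ± 4.06 in miRbmx (SD, n = 4). Each neighbouring gap was smaller than or about the size of the SDs. The log2 fold change was 0.46 ± 0.22 (-0.01 to 0.93) in miRbmx and 0.07 ± 0.22 (-0.41 to 0.54) in miRbmxl1. The pair ratios in miRbmx were 1.14, 2.51, 0.877 and 1.31, higher in 3 of 4 pairs, and those in miRbmxl1 were 0.713, 1.05, 1.56 and 0.948. The value for miRbmx went from 0.73 without replicate 3 of miRbmx to 0.16 without replicate 2 of all groups. The value for miRbmxl1 became -0.29 without replicate 3 of miRbmxl1.

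Rny3 had means of 8.60 ± 1.61 CPM in miScramble, 11.4 ± 1.68 in miRbmx and 11.6 ± 7.44 in miRbmxl1 (SD, n = 4). The log2 fold change was 0.44 ± 0.26 (-0.12 to 0.99) in miRbmx, where all 4 pair ratios were above 1 (1.46, 1.56, 1.11 and 1.24). It was 0.21 without replicate 2 of miRbmx and 0.69 without replicate 3 of miRbmx. The gap between miScramble and miRbmx was larger than either SD, but replicate 3 of miRbmx (9.39 CPM) lay within the range of miScramble and replicate 2 (10.8 CPM) was level with its top. In miRbmxl1 the log2 fold change was 0.33 ± 0.27 (-0.24 to 0.89), the pair ratios were 1.32, 0.639, 2.60 and 0.842, and the value became -0.18 without replicate 3 of miRbmxl1.

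Between the knockdowns, miRbmx minus miRbmxl1 was -0.05 ± 0.10 (-0.26 to 0.17) for Rn7sk, 0.39 ± 0.23 (-0.08 to 0.87) for Rny1 and 0.11 ± 0.27 (-0.45 to 0.67) for Rny3. When 1 replicate number or 1 library was left out, the value for Rny1 ran from 0.09 (without replicate 2 of all groups) to 0.82 (without replicate 3 of all groups), and that for Rny3 from -0.22 to 0.64, without the same numbers. The knockdown comparisons share the miScramble libraries, so their values for a gene are not independent. Of these 3 RNAs, edgeR's quasi-likelihood test called 0 at an adjusted p under 0.05 in miRbmx, where it called 8.35% of the 17569 genes tested (4.16% higher and 4.19% lower), 0 in miRbmxl1 (4.46% of genes, 2.25% higher and 2.20% lower) and 0 between the knockdowns (0.0114%, with 0.00569% in each direction). Without the block it called 0 of them again, and 0.00569% of genes in either knockdown. At an unadjusted p under 0.05 the count was also 0 in each, as it was with DESeq2. With no low-count filter the count was 2 in miRbmx (Rny1 and Rny3) and 1 between the knockdowns, and without replicate 3 of miRbmx it was 1 in miRbmx (Rny1). The shares of all genes called in these last settings are not given beside them. Nothing is read from these counts, since the choice of genes used the same contrasts. The upper ends of the intervals in miRbmx were 1.91-fold for Rny1 and 1.99-fold for Rny3.

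**Figure D2:**
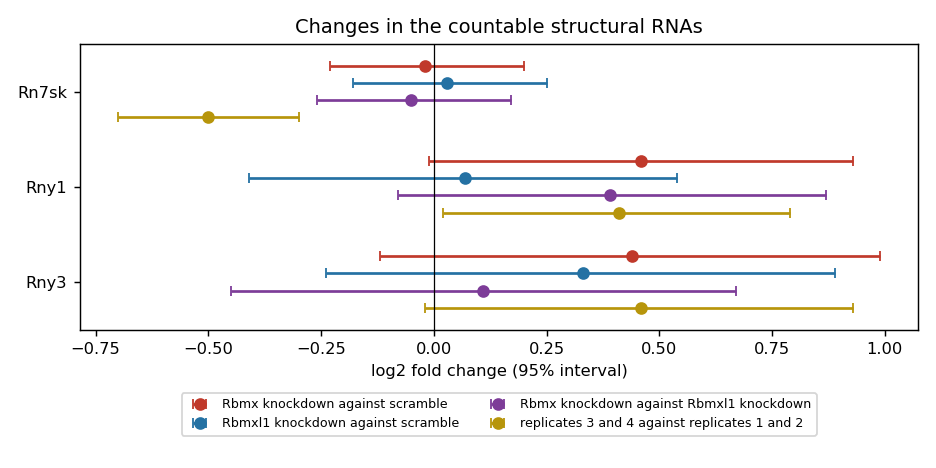
Log2 fold changes of Rn7sk, Rny1 and Rny3 with 95% intervals, in the 3 comparisons between groups and between replicate sets. The knockdown intervals of Rn7sk lie within -0.26 and 0.25, and those of the Y RNAs are wider and include 0. Between replicate sets the interval of Rn7sk (-0.70 to -0.30) lies below 0, that of Rny1 (0.02 to 0.79) above 0, and that of Rny3 (-0.02 to 0.93) includes 0. These set intervals treat same-numbered libraries as separate and are too narrow, and Rny1 was not called.

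A second split of the libraries, replicates 3 and 4 against replicates 1 and 2 in every group, was not used to choose the genes and was fitted with group as a covariate. The split was recognised from the values of these same libraries, and the labels name no batch for it, so its values and calls are a description. Same-numbered libraries deviated together, so the 6 libraries of a set stand for only 2 replicate numbers, and the SEs and intervals of this contrast, which treat them as separate, are too narrow and its p-values too small. Rn7sk was lower in replicates 3 and 4, at 5643 ± 457 CPM against 7991 ± 1448 (SD, n = 6). The libraries ranged from 5108 to 6150 CPM in the one set and from 6127 to 10593 in the other, which overlap at a single pair of values, and in each group both of replicates 3 and 4 lay below both of replicates 1 and 2. The log2 change was -0.50 ± 0.10 (SE), a fold of 0.707 with an interval of 0.614 to 0.813. It was -0.63 to -0.36 when 1 replicate number or 1 library was left out.

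The Y RNAs had changes of the opposite sign between the sets. Rny1 was at 20.7 ± 4.77 CPM in replicates 3 and 4 and at 16.1 ± 6.02 in replicates 1 and 2, a log2 change of 0.41 ± 0.18 (0.02 to 0.79) that was not called. It was 0.22 to 0.57 when 1 replicate number or 1 library was left out. Rny3 was at 12.2 ± 5.11 and 8.85 ± 2.86 CPM, a log2 change of 0.46 ± 0.22 that was not called either. It was 0.19 without replicate 3 of miRbmxl1 and 0.71 without replicate 1 of all groups. In all, 1 of these 3 RNAs was called in a contrast that called 45.5% of the genes tested (23.1% higher and 22.5% lower). A call in this contrast was thus common among all genes.

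Among 284 tested genes of other small-RNA classes (snRNA, snoRNA, scaRNA, misc_RNA and ribozyme), 77 were called higher and 9 lower in replicates 3 and 4, with a median log2 change of 0.44 against 0.026 over all genes tested. SnoRNAs, which guide modification of ribosomal RNA, had a median of 0.58 with 50 of 135 higher and 0 lower, and snRNAs, the RNAs of the spliceosome and their relatives, had 0.49 with 23 of 88 higher and 1 lower. The 44 misc_RNA genes, the class that holds 7SK and Y RNAs, had a median of 0.17 with 3 higher and 4 lower. The 14 scaRNA genes had a median of 0.06 with 1 higher and 2 lower, and the 3 ribozyme genes a median of -0.42 with 0 higher and 2 lower. Rn7sk thus lay on the side of 0 of the ribozyme median, and the Y RNAs on that of the other 4 medians. No test of that difference was made.

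**Figure D3:**
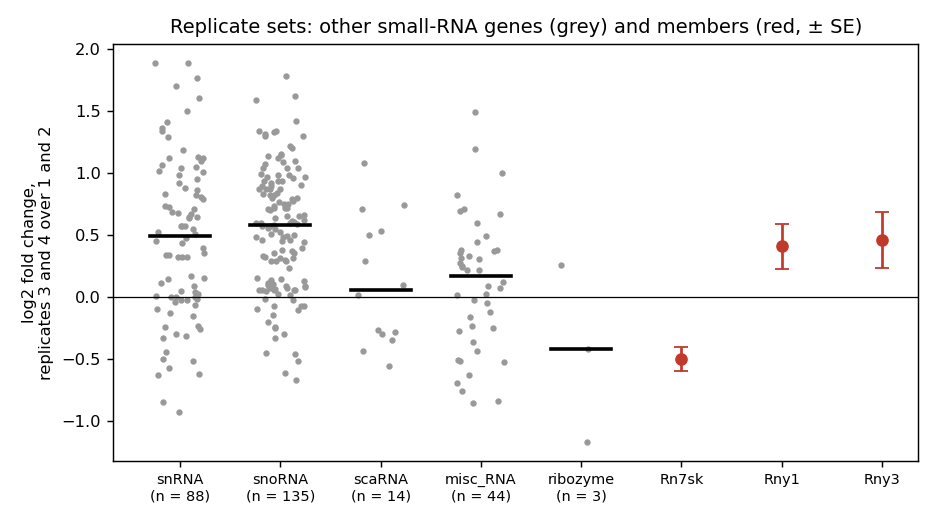
Log2 fold change of replicates 3 and 4 over replicates 1 and 2 for each tested gene of 5 other small-RNA classes (grey points, black line at the median) and for Rn7sk, Rny1 and Rny3 (red, ± SE). The medians of snRNA (0.49) and snoRNA (0.58) are above 0, Rn7sk is at -0.50 and the Y RNAs are at 0.41 and 0.46.

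In the knockdowns the same 284 genes had medians of -0.03 in miRbmx and 0.04 in miRbmxl1, against 0 and 0.007 over all genes tested. The edgeR test called 0 of them in miRbmx, where it called 8.35% of all genes, and 1 in miRbmxl1, where it called 4.46%. That gene was Gm26035, 96.1% identical to Rn7sk over bases 1 to 229, at 20.5 ± 6.75 CPM in miScramble and 25.9 ± 8.16 in miRbmxl1 (SD, n = 4), a log2 change of 0.34 ± 0.09 (edgeR's quasi-likelihood test, adjusted p = 0.0477). Without the block its adjusted p was 0.833, and the call held in 5 of 16 fits that left out 1 replicate number or 1 library. Its libraries overlapped between the groups, from 14.4 to 27.6 CPM in miScramble and from 19.2 to 37.4 in miRbmxl1.

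Rn7sk has 34 annotated copies by the measure used for Rpph1, of which 24 held reads. Together they held 5859 to 9612 reads per library, 1.80% to 3.50% of those of Rn7sk. Gm24447, the copy identical over 241 bases, held the most reads of them, at 90.8 ± 12.4 CPM in miScramble, 96.6 ± 22.6 in miRbmx and 107 ± 22.4 in miRbmxl1 (SD, n = 4). It was not called in any of these contrasts, and between replicate sets its log2 change was -0.16 ± 0.12 against -0.50 for Rn7sk. Of the 9 copies tested, 2 were called between sets, both lower: Gm26035 at -0.70 ± 0.11 and Gm23624 at -0.845 ± 0.15, named after their values were seen, a share close to the 22.5% of all genes called lower. Adding the reads of all copies to Rn7sk left its log2 changes at -0.01 in miRbmx and 0.04 in miRbmxl1, and at -0.50 between sets. Of the 13 annotated copies of Rny1, 2 held reads, 14 to 57 per library in all.

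The proteins that bind these RNAs were examined as lists written from general knowledge, also with earlier results of these data known, so their calls are not independent evidence. Their p-values are given because their genes were not named by the choice of the RNAs. Each list is read beside the 8.35% of genes called in miRbmx and 4.46% in miRbmxl1, and beside medians over all genes of 0 and 0.007. All the partner calls below come from edgeR's quasi-likelihood test with the replicate block, and without the block the adjusted p of each was between 0.266 and 0.625.

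Of 7 genes for 7SK particle and P-TEFb proteins, 1 was called lower in miRbmx and 0 in miRbmxl1, with medians of -0.10 and -0.16 and with 7 and 6 of 7 estimates below 0. The called gene was Hexim1, the inhibitor of P-TEFb, at 32.9 ± 2.31 CPM in miScramble and 27.3 ± 2.83 in miRbmx (log2 change -0.27 ± 0.08, adjusted p = 0.0388). In miRbmxl1 it was at 28.2 ± 0.534 CPM, with a log2 change of -0.22 ± 0.08 that did not pass (adjusted p = 0.109).

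Of 11 genes for RNase P and RNase MRP proteins, 1 was called lower in miRbmx and 1 higher in miRbmxl1, with medians of 0.08 and 0.09. Rpp25, one of the subunits that bind the RNA, fell from 38.9 ± 2.05 to 31.3 ± 4.85 CPM in miRbmx (log2 change -0.33 ± 0.09, adjusted p = 0.0333). Rpp38, another RNA-binding subunit, rose from 6.01 ± 0.990 to 8.11 ± 1.76 CPM in miRbmxl1 (log2 change 0.43 ± 0.11, adjusted p = 0.0343). Neither was called in the other knockdown, and no gene of this list was called between the knockdowns.

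Of 12 genes for telomerase proteins and telomerase RNA processing, 1 was called higher in miRbmx and 2 in miRbmxl1, with medians of 0.12 and 0.06 and 0 called lower in either. Ruvbl2, an ATPase of many assembly complexes, rose from 117 ± 7.93 CPM to 139 ± 11.7 in miRbmx (log2 change 0.25 ± 0.06, adjusted p = 0.0176) and to 138 ± 17.6 in miRbmxl1 (0.24 ± 0.06, adjusted p = 0.0320). Nop10, a core protein of box H/ACA particles, rose from 14.0 ± 1.80 to 17.0 ± 1.58 CPM in miRbmxl1 (log2 change 0.28 ± 0.07, adjusted p = 0.0428). In miRbmx it was at 16.6 ± 2.13 CPM, with a log2 change of 0.24 ± 0.07 that did not pass (edgeR, adjusted p = 0.0544). Both genes serve other particles as well.

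Of 7 genes for Y RNA-binding proteins, 0 were called in miRbmx and 1 was called lower in miRbmxl1, with medians of -0.02 and -0.04. Trove2, which encodes Ro60, fell from 96.6 ± 13.0 to 77.9 ± 18 CPM in miRbmxl1 (log2 change -0.32 ± 0.09, adjusted p = 0.0445), while in miRbmx it was at 90.3 ± 14.6 CPM (-0.10, adjusted p = 0.513).

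RNA polymerase III itself showed 0 of 18 subunit genes called in either knockdown, with medians of 0.03 and 0.01. The largest estimates were -0.30 for Polr3gl in miRbmx (adjusted p = 0.119) and 0.24 for Polr3g in miRbmxl1 (adjusted p = 0.100), both alternative forms of one subunit. Of 19 genes for initiation factors and regulators, 1 was called higher and 2 lower in miRbmx, and 1 lower in miRbmxl1, with medians of -0.01 and -0.06. Snapc1, a subunit of the SNAPc complex that binds the upstream element of 7SK-type promoters, fell from 15.4 ± 0.475 CPM to 11.9 ± 0.608 in miRbmx (log2 change -0.38 ± 0.08, adjusted p = 0.0152) and to 12 ± 1.44 in miRbmxl1 (-0.36 ± 0.08, adjusted p = 0.0268). Gtf3c2, a subunit of TFIIIC, fell from 61.9 ± 4.98 to 49.4 ± 2.19 CPM in miRbmx (-0.32 ± 0.07, adjusted p = 0.0154). Gtf3a, the factor for 5S ribosomal RNA genes, rose from 50.1 ± 4.46 to 57.4 ± 4.48 CPM in miRbmx (0.20 ± 0.06, adjusted p = 0.0499). In miRbmxl1, Gtf3c2 was at 51.9 ± 6.46 CPM and Gtf3a at 58.3 ± 6.87. Their log2 changes there, -0.255 ± 0.071 and 0.214 ± 0.059, were of similar size but did not pass (edgeR, adjusted p = 0.053 and 0.0504).

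The same lists were counted between replicate sets, where 23.1% of all genes were called higher in replicates 3 and 4 and 22.5% lower. Of the 11 RNase P and RNase MRP genes, 6 were called higher and 0 lower, and of the 12 telomerase genes 7 higher and 0 lower. The 7SK list had 1 of 7 higher and 3 lower, and the Y RNA-binding list 2 of 7 higher and 2 lower. RNA polymerase III had 5 of 18 subunit genes higher and 2 lower, and 6 of 19 initiation factor genes higher and 3 lower. Of the genes called in a knockdown, 4 were also called between sets, with log2 changes of -0.38 for Trove2, 0.28 for Nop10, 0.22 for Ruvbl2 and 0.22 for Gtf3a. Those of Hexim1 (-0.08), Rpp25 (-0.07), Rpp38 (0.23), Snapc1 (0.09) and Gtf3c2 (0.13) were not called.

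**Figure D4:**
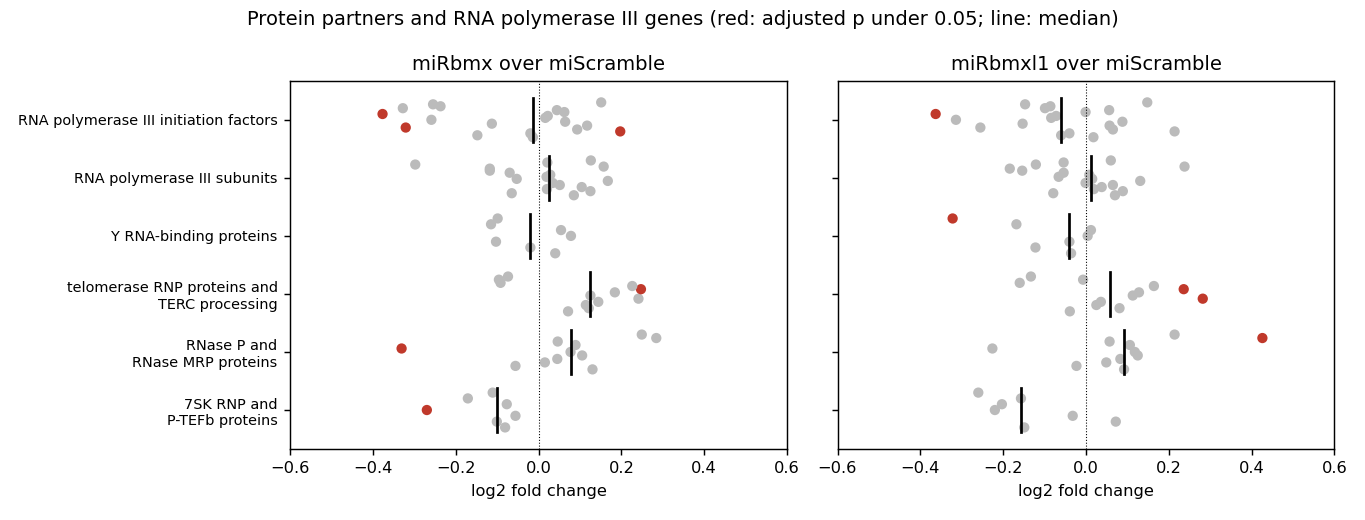
Log2 fold change against miScramble of each tested gene in 6 lists of partner proteins and RNA polymerase III genes, with red for an adjusted p under 0.05 in the fit with the replicate block and a line at each list's median. List medians lie between -0.16 and 0.12, and from 0 to 3 genes of a list are red in a knockdown.

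Each of these calls was lost without replicate 3 of miScramble, where the adjusted p ranged from 0.0681 to 0.174 (edgeR). Leaving out 1 replicate number or 1 library kept Snapc1 and Gtf3c2 called in miRbmx in 11 of 16 fits each, Ruvbl2 in 8, Rpp25 in 7, Hexim1 in 5 and Gtf3a in 2. In miRbmxl1 it kept Snapc1 in 7 of 16, Ruvbl2 in 6, Rpp38 and Trove2 in 5 and Nop10 in 1. The direction was the same in all of these fits.

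Some other transcripts followed each RNA closely over the 12 libraries. Likeness was the root mean square difference of log2 CPM after centring each gene on its mean, as a description only. Nearest to Rn7sk were Rpl39 (0.11), Rps20 (0.11) and Rpl7 (0.11), all mRNAs of ribosomal proteins, against a median of 0.395 over all tested genes. Nearest to Rny1 were the processed pseudogenes Gm8399 (0.21), Gm5075 (0.21) and Gm13573 (0.23), against a median of 0.532. Nearest to Rny3 were Rn7s2 (0.22), the pseudogene Mrto4-ps1 (0.23) and Rn7s6 (0.26), against 0.592, where Rn7s2 and Rn7s6 are annotated as 7SL RNA, the RNA of the signal recognition particle. The libraries share their depth and the separation of the replicate sets, so these distances include both.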

How the data were processed

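Raw read counts were deposited for each of the 12 libraries, as whole numbers over 55401 Ensembl identifiers and 5 closing rows without a gene. Per the submitters' processing notes, mm10, STAR 2.5.3a, HTSeq 0.6.1p1, R 3.3.2 and DESeq2 1.16.1 were used, with no roles given. The annotation release, strand setting and read length are not given in the sources used here, so counts of overlapping and antisense genes are uncertain. The 5 rows held 52.3% to 57.4% of each file and were left out. Names, positions and sequences came from GENCODE M21 (55141 identifiers matched, 260 did not).

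Counts were tested with edgeR 4.0.16 in R 4.3.3: filterByExpr (minimum count 10, minimum total 15), TMM scaling, and the quasi-likelihood test on group plus replicate number, or on group plus replicate set, with Benjamini-Hochberg adjustment over 17569 genes and calls under 0.05. CPM used TMM-scaled sizes. Log2 CPM for the pairing and likeness used a prior count of 2. Same-numbered libraries of different groups deviated together in 12 of 12 pairs (r from 0.195 to 0.524). Different-numbered pairs were not compared, and the separation of the replicate sets also enters these values. The check therefore cannot show that single numbers pair the samples, and the block by number is a choice of the fit. No 2 libraries held identical counts. Copies were found with blastn 2.17.0. The script was tested on simulated data. Alternatives were DESeq2 1.42.0, other scaling, no filter, no block, left-out libraries and single replicate sets.

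The genes and lists were chosen with earlier results of these data known. Text names the 6 RNAs, partners called in either knockdown (or the 2 largest estimates), small RNAs called in a knockdown, neighbours that passed the filter and the 3 most alike genes. Other names were added for their place or role, or after their values were seen (Ccnb1ip1, Tert and the copies).

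The result for 1 lineage marker is not reported here.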

Additional observations from a re-analysis of the deposited data

Results flagged for a closer look

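Over 9 groups of 4 libraries (3 RNAs in 3 groups), 2 held a library far from the other 3 of its group by Dixon's criterion, which chance flags in about 1 of 20 groups. Rn7sk in replicate 1 of miRbmxl1 stood at 10593 CPM, while the other 3 libraries of that group were at 5420 to 6127 CPM. Without that library, the log2 fold change of Rn7sk in miRbmxl1 was -0.11 in place of 0.03. Rny1 in replicate 2 of miScramble stood at 9.63 CPM, while the other 3 were at 18.2 to 19.0 CPM. Without it, the log2 fold change of Rny1 in miRbmxl1 was -0.07 in place of 0.07, and that in miRbmx was 0.30 in place of 0.46. Rprl3, the Rpph1 copy, was also highest in replicate 1 of miRbmxl1, at 193 CPM, and the part of that library in both values was not tested.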

How the results depend on the processing

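The direction and call of Rn7sk between replicate sets held in all 21 alternatives. All of these kept the same split with libraries as units, so none tests it with replicate numbers as units. With no replicate block, 1 gene was called in miRbmx, 1 in miRbmxl1 and 2 between the knockdowns, each a targeted gene, and Rny3 between the knockdowns became -0.024. With no low-count filter, 1243 genes were called in miRbmxl1 and 86 between the knockdowns, and of the structural RNAs 2 in miRbmx, 1 between the knockdowns and 3 between sets. DESeq2 called 1279 genes in miRbmxl1 and 10 between the knockdowns, and scaling by total reads without TMM called 2 of the RNAs between sets. Shares of all genes called are not given for these settings, so nothing is read from the counts of these RNAs. Replicates 1 and 2 alone gave 4 genes in miRbmx, 30 in miRbmxl1 and 4 between the knockdowns, with Rn7sk at 0.00145 in miRbmx and Rny3 at -0.0582 and Rny1 at -0.231 in miRbmxl1. Replicates 3 and 4 alone gave 18 genes between the knockdowns, with Rn7sk at -0.00562 in miRbmxl1, and Rny3 at -0.419 and Rny1 at -0.188 between the knockdowns. The cause was not tested, except that these 2 settings hold fewer samples.

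Leaving out 1 replicate number or 1 library gave 146 (without replicate 3) to 1904 called genes in miRbmx, 100 (without replicate 4) to 1032 in miRbmxl1 and 2 to 7 between the knockdowns. Of the RNAs it gave 0 to 1 in miRbmx (Rny1, without replicate 3 of miRbmx) and 1 to 2 between sets (2 without replicate 1 of miScramble, replicate 2 of miRbmx or replicate 3 of miRbmx). The log2 changes that turned ran from -0.0979 to 0.0582 for Rn7sk in miRbmx, and in miRbmxl1 from -0.130 to 0.167 for Rn7sk, from -0.177 to 0.612 for Rny3 and from -0.291 to 0.242 for Rny1. Between the knockdowns they ran from -0.168 to 0.108 for Rn7sk and from -0.221 to 0.637 for Rny3. Summing Rn7sk and Rny1 with their copies, an alternative chosen after seeing the data, changed no call of these RNAs. The Y RNAs rest on 211 to 1263 reads per library.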

Other observations

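A few other structural RNAs were picked by name after their values were seen, and none was called in a knockdown by edgeR's quasi-likelihood test. The 7SL RNA Rn7s6 was at 25.3 ± 4.69 CPM in miScramble, 37.0 ± 9.07 in miRbmx and 39.2 ± 19.1 in miRbmxl1 (SD, n = 4), with log2 changes of 0.59 ± 0.22 and 0.58 ± 0.22 that did not pass the test (edgeR, adjusted p = 0.106 and 0.141). Rn7s2 was at 25.4 ± 7.29, 32.6 ± 6.19 and 32.4 ± 15.9 CPM (log2 changes 0.40 ± 0.25 and 0.31 ± 0.25). The vault RNA Vaultrc5 was at 2.57 ± 0.686, 3.70 ± 0.891 and 3.94 ± 1.67 CPM (0.55 ± 0.27 and 0.61 ± 0.27). Its miRbmxl1 libraries were at 3.64, 2.35, 6.29 and 3.49 CPM, so that replicate 3 raised the mean of that group. A further 7SL gene, Rn7s1, had estimates of -0.07 in miRbmx and 0.34 in miRbmxl1.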
